A study of Triticum aestivum with 12 samples.

Results

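The difference of salt response between roots and shoots was measured for each gene of bread wheat (Triticum aestivum, Najran cultivar) as the log2 fold change of salt-treated against control roots minus that of salt-treated against control shoots. All 12 RNA-seq libraries entered this contrast, in 4 groups of 3. The groups were roots of plants watered with 200 mM NaCl, roots of control plants that received tap water (0 mM NaCl), shoots of the 200 mM NaCl plants and shoots of the control plants. Every sample was a pool of a duplicate of plants of this one cultivar grown from seed in the same light, temperature and humidity. The methods place the start of the salt watering after germination. Roots and shoots were taken from the same plants, but whether a root and a shoot library with one number hold the same plants is not given in the sources used here. The values were normalized counts per gene, and 51487 of the 83486 genes listed were tested, namely those with 10 or more normalized counts in 3 or more libraries.

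Salt in the soil limits water uptake and loads tissues with sodium and chloride. Roots meet the salt first and control which ions enter the xylem, whereas shoots receive what the transpiration stream delivers and carry out photosynthesis. Plants respond with dehydrins and other late embryogenesis abundant (LEA) proteins, which protect proteins and membranes during water loss, with proline, a compatible solute, with ion and sugar carriers, and with changes in cell wall and defence proteins. Much of this is under abscisic acid (ABA), the hormone of water deficit.

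The labelled organs were checked against their markers. The 64 chlorophyll a-b binding protein genes tested summed to between 218 and 254 normalized counts in salt-treated roots and between 236 and 935 in control roots. In salt-treated shoots they summed to between 372248 and 439897, and in control shoots to between 287931 and 498170. The 23 Rubisco small subunit genes were likewise high in shoots (at least 431629) and low in roots (at most 1264). No gene was described as a Casparian strip membrane protein, the root marker chosen, so that root marker could not be read. The 43 genes described as CASP-like proteins, a wider family, were no higher in roots and summed to between 4715 and 5421 normalized counts in salt-treated roots, 7528 and 12084 in control roots, 7472 and 8289 in salt-treated shoots, and 9850 and 11379 in control shoots. Normalized counts summed to between 13890189 and 14183797 per salt-treated root library, between 14878135 and 15863307 per control root library, between 18565098 and 19748450 per salt-treated shoot library and between 20513240 and 25371113 per control shoot library. Genes of the D subgenome were little represented, with 26.9% of those listed passing the filter against 75.0% and 74.9% of the A and B genes. They held between 2.46% and 2.73% of a root library's counts and between 5.34% and 8.89% of a shoot library's. The plants are labelled Triticum aestivum, a species with A, B and D subgenomes, and whether they carry a full D subgenome was not tested, so every value of a D gene here stands under that doubt. Wheat carries near-identical copies of most genes, among which the read assignment can be uncertain, and the libraries did not keep the strand.

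The response to salt differed between the organs for 1097 genes, 2.13% of those tested, by limma. A gene was called where the adjusted p (Benjamini-Hochberg, over every gene tested) lay under 0.01 and the difference was 1 or more in size on the log2 scale. The response was higher in roots for 476 genes (0.925%) and lower in roots for 621 (1.21%). The median difference of all genes tested was −0.01. Among the called genes, 538 passed the same thresholds for a salt response in roots only, 412 in shoots only, 20 in both organs with the same sign and 48 in both with opposite signs, and 79 passed in neither organ alone. By the same fit, 7.2% of all genes tested responded in roots and 4.17% in shoots. In every called gene the 3 salt-treated and the 3 control libraries did not overlap in at least one organ, which also held for 54.1% of all genes tested (34.9% in roots and 33.7% in shoots).

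A difference of response can arise because a gene is not expressed in one organ. Of the 1097 called genes, 753 reached the minimum count in both organs, 181 in roots only and 159 in shoots only. For 79 called genes all 6 shoot libraries were listed at 0, and 61 of these had a lower response in roots. For 30 called genes all 6 root libraries were listed at 0. In such genes the difference is the response of the other organ alone. Of the 38669 genes that reached the minimum count in both organs, 1.95% were called. In whole organs, fewer cells of a type and less RNA per cell cannot be told apart.

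The count depended on single libraries. Leaving out one library at a time gave 453 called genes in the fit that lacked root control replicate 2 and 1727 in the fit that lacked root salt replicate 3, with 18 and 62 opposite genes. In the smaller set, 443 of the 453 were among the 1097. The sequencing provider's check put 4 samples under the RNA integrity limit that the methods state. These were shoot control replicates 1 and 3, shoot salt replicate 1 and root salt replicate 1. The part of RNA quality in the counts was not tested.

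**Figure D1:**
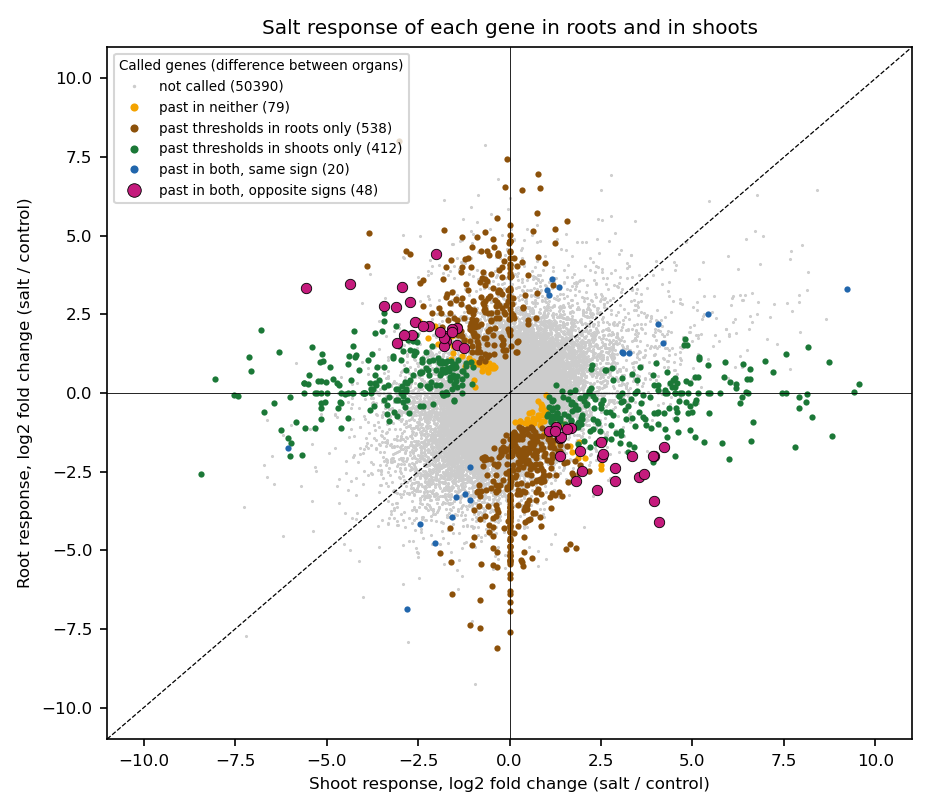
Root response (vertical axis) against shoot response (horizontal axis), each as log2 fold change of salt-treated over control, for the 51487 genes tested. Grey points are genes not called and coloured points the 1097 called genes by class; the dashed line marks equal responses. The 48 genes with opposite responses lie in the upper left and lower right corners of the axes, and most other called genes lie along one axis.

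The 48 genes with opposite responses (0.0932% of those tested) divided into 23 that rose in roots and fell in shoots and 25 that fell in roots and rose in shoots. In all 48 the salt-treated and control libraries were apart in both organs, in opposite directions. Over all genes tested, 2.37% had groups apart in this way. The differences ranged from 2.68 to 8.92 (median 4.49) in the first set and from −8.19 to −2.31 (median −4.58) in the second. Only 13 of the 48 carried a description, since descriptions were given for 4987 of the genes tested.

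The largest differences among these genes belonged to genes without a description. TraesCS5A02G197200, on chromosome 5A from 401134551 to 401145724, had 8.4, 10.2 and 8.72 normalized counts in salt-treated roots against 161, 204 and 155 in control roots. It had 41.9, 35.6 and 48 normalized counts in salt-treated shoots against 1.63, 1.9 and 1.06 in control shoots. It thus fell in roots by 4.1 and rose in shoots by 4.09 on the log2 scale, with a difference of −8.19 (SE 0.4, adjusted p = 3.12e-06 by limma). TraesCS5B02G261500, on chromosome 5B from 446007658 to 446010332, had the same adjusted p and a difference of −7.39 (SE 0.34). Its mean was 34.3 ± 10.0 in salt-treated roots against 374 ± 59.7 in control roots, and 363 ± 65.2 in salt-treated shoots against 22.3 ± 2.5 in control shoots (SD, n = 3). Its level in salt-treated shoots was close to that in control roots. In the other direction, TraesCS2B02G241200, on chromosome 2B from 245128909 to 245131359, had 398, 260 and 290 normalized counts in salt-treated roots against 35.6, 33 and 22.1 in control roots, and 2.8, 13.3 and 8.5 in salt-treated shoots against 338, 272 and 598 in control shoots. Its difference was 8.92 (SE 0.63, adjusted p = 9.03e-05 by limma).

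Of the described genes, 7 fell in roots and rose in shoots. TraesCS7A02G228300, for the chloroplastic carboxyl-terminal-processing peptidase 3, a family that trims a photosystem II subunit, had the largest difference of these, −5.9 (SE 0.45). It had 2606, 3077 and 2858 normalized counts in salt-treated shoots against 203, 167 and 196 in control shoots, with all root libraries between 3.49 and 36.4. The other 2 genes of this description, TraesCS7B02G191400 and TraesCS7D02G226300, rose in shoots by 4.05 and by 4.23 and were also called, with root libraries of at most 13.1. Their calls were lost in 4 and 5 of 12 fits without one library. Glutamate dehydrogenase (TraesCS2A02G389900), which releases or fixes ammonium at glutamate, had 741, 683 and 1268 normalized counts in salt-treated roots against 2836, 2304 and 1929 in control roots. In shoots it had 1286, 1367 and 1173 under salt against 465, 573 and 426 in controls. The organs differed in controls, and their ranges overlapped under salt. The same direction was found for a patatin (TraesCS5B02G529100, difference −4.45), a lipid acyl hydrolase, for a flavin-containing monooxygenase (TraesCS5A02G184300, −4.58), for methionine gamma-lyase (TraesCS1A02G181000, −3.76), which degrades methionine, and for a thioredoxin domain protein (TraesCS6A02G372100, −3.39) whose root libraries were all under 5 normalized counts. A DETOXIFICATION protein of the multidrug and toxic compound extrusion (MATE) family, TraesCS4B02G304300, was the seventh, with a difference of −4.05. Each of these 7 genes kept its call in every fit that left out one library except methionine gamma-lyase, whose adjusted p was 0.0102 without root control replicate 2 (limma).

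The 6 described genes that rose in roots and fell in shoots were 2 peroxidases, an expansin, a WAT1-related protein, a MATE transporter and a serine/threonine-protein kinase. The peroxidase TraesCS1A02G108400 had 442, 434 and 491 normalized counts in salt-treated roots against 103, 128 and 154 in control roots, and 3.69, 6.15 and 1.07 in salt-treated shoots against 37.4, 19 and 22.3 in control shoots. Its difference was 4.51 (SE 0.57), and that of the second peroxidase, TraesCS2B02G372500, was 2.68 (SE 0.36). Class III peroxidases use hydrogen peroxide to cross-link or loosen the cell wall. The expansin TraesCS1A02G300200, a wall-loosening protein, had 147, 94.4 and 133 normalized counts in salt-treated roots against 55.2, 37.5 and 35.2 in control roots. In shoots, where it was far more abundant, it had 755, 947 and 799 under salt against 2748, 2538 and 1592 in controls. The WAT1-related protein TraesCS5B02G219500 (WAT1 exports auxin from the vacuole in Arabidopsis) had a difference of 3.51, the MATE transporter TraesCS2B02G280500 of 3.53 and the kinase TraesCS3B02G086900 of 4.34. These 6 calls held whichever library was left out.

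**Figure D2:**
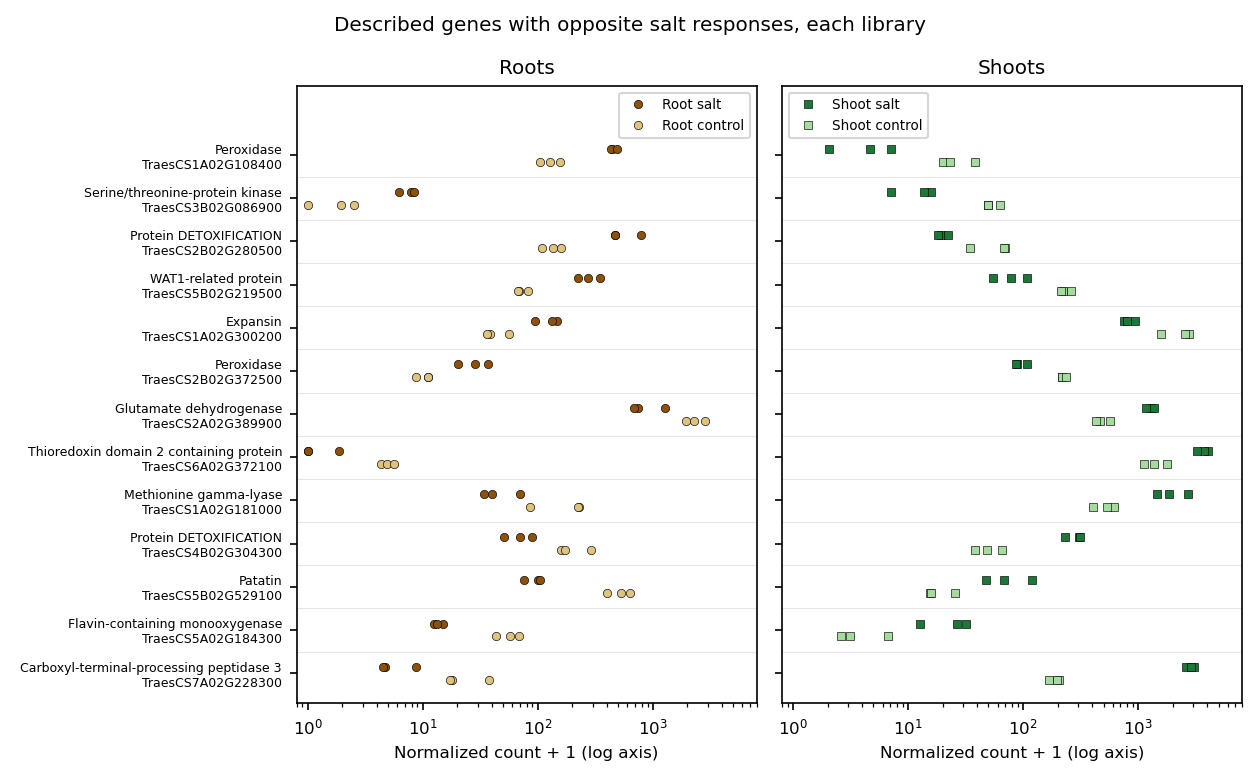
Normalized count + 1 (log axis) in each root library (left) and shoot library (right) of the 13 described genes with opposite salt responses, salt-treated above control in each row. In every row the salt-treated and control points are apart in both panels, on opposite sides: for the peroxidase TraesCS1A02G108400, 434 to 491 under salt against 103 to 154 in control roots.

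Described genes were sorted into 41 lists by words in their descriptions, which held 2500 genes tested and 171 called. Because the descriptions came from the deposited tables of changed genes, 5.27% of the described genes were called (1.9% higher and 3.37% lower in roots). The median difference of the described genes was −0.11. These shares and this median are the background for the lists. By number, the lists with the most called genes were large ones for the most part, and their shares differed. Called were 7.21% of the peroxidases, 9.22% of the protein kinases and calcium list, 7.84% of the transcription factors and 27.9% of the sugar transporters. The glycosyltransferases, with 5.19% called, were at the share of all described genes. The direction differed between lists.

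**Figure D3:**
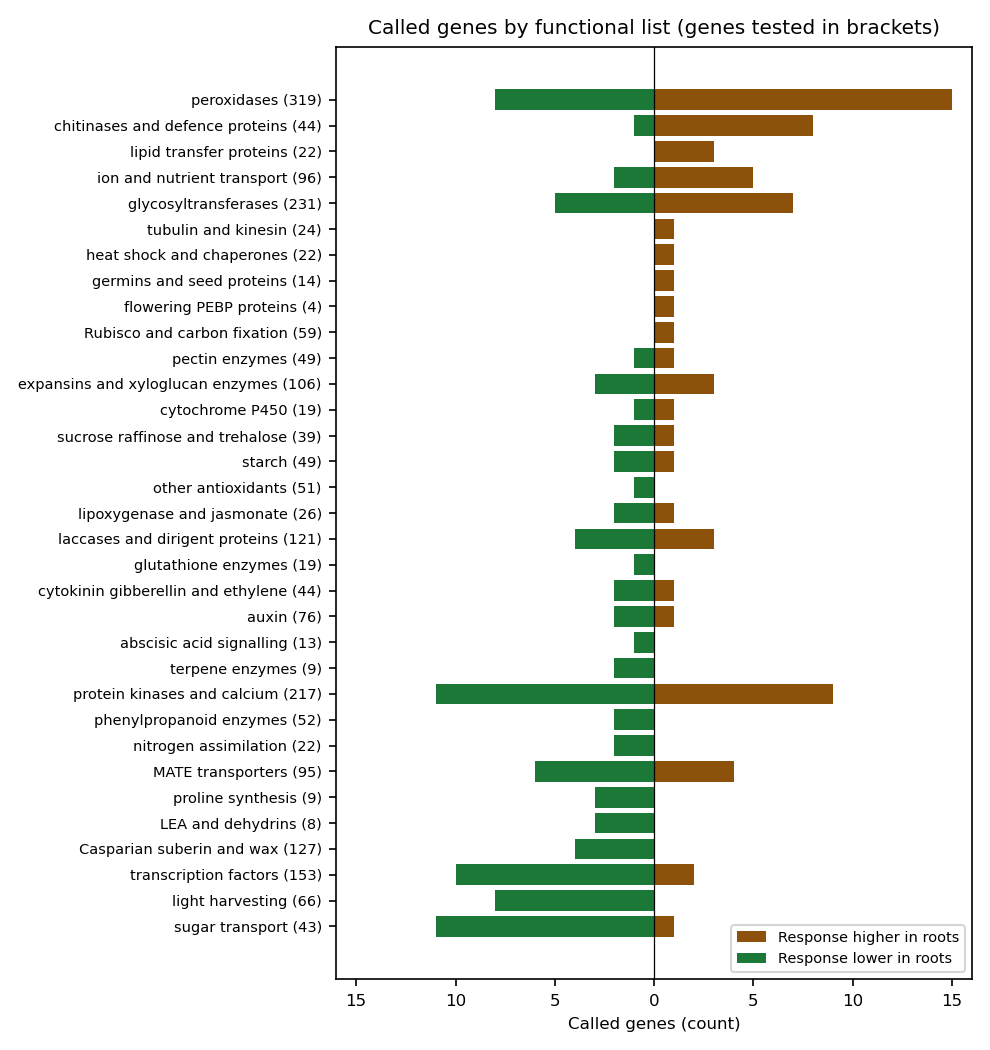
Number of called genes per functional list with a higher (right, brown) or lower (left, green) salt response in roots; the number of genes tested is in brackets and lists without a called gene are not drawn. Peroxidases (15 higher, 8 lower) and sugar transporters (1 higher, 11 lower) stand at opposite ends. At an adjusted p under 0.05 by limma, which is not drawn, the peroxidases had 26 higher and 35 lower.

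Among 8 genes for LEA proteins, dehydrins and related ABA- or cold-responsive proteins, 3 were called, each lower in roots, and 5 did not pass the test. The median difference was −1.51, with 7 of 8 negative. The summed level of the list overlapped between the treatments in both organs, at 626 to 1062 normalized counts in salt-treated roots against 613 to 996 in control roots, and 12428 to 17607 in salt-treated shoots against 6600 to 16975 in control shoots, where replicate 1 was the highest. The dehydrin WZY2 gene (TraesCS6A02G350700, chromosome 6A, 582516436 to 582517359) had 349, 300 and 329 normalized counts in salt-treated roots against 213, 183 and 114 in control roots. In shoots it had 1205, 1398 and 1448 under salt against 3.25, 6.66 and 0 in controls. The root difference of 0.98 did not pass its test, while the gene rose in shoots by 8.72, which gave a difference of −7.74 (SE 0.78, adjusted p = 0.000335 by limma). Control roots thus held this transcript at a level that control shoots lacked. With a pseudocount of 0.1 the call was lost. Outside the list, a Rab protein gene on chromosome 6B (TraesCS6B02G383500) rose in shoots by 7.92, with 485, 373 and 567 normalized counts in salt-treated roots against 740, 588 and 302 in control roots, and 880, 833 and 1243 in salt-treated shoots against 6.5, 7.65 and 0 in control shoots. In the field, RAB names genes responsive to ABA as well as small GTPases, and the description did not say which was meant. Also outside the list, a cold regulated protein gene (TraesCS1D02G296500) had 213, 237 and 193 normalized counts in salt-treated shoots against 17.9, 9.52 and 6.35 in control shoots, while its root groups overlapped. Its call was lost in 4 of 12 fits without one library. In the list, a cold-responsive protein gene (TraesCS2A02G460600) had a difference of −2.86 that was lost in 9 of the 12 fits without one library (adjusted p up to 0.026 by limma).

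The third called gene of this list, TraesCS1B02G381500 (ABA inducible protein, chromosome 1B, 614292094 to 614293204), was one of 8 genes the study chose for RT-qPCR, under the primer name Wrab18. That choice was made on these samples, so it is not independent evidence of direction. The gene had 215, 166 and 154 normalized counts in salt-treated roots against 502, 464 and 253 in control roots, and 29.5, 35.7 and 32.1 in salt-treated shoots against 1.63, 0 and 1.06 in control shoots. The root groups did not overlap, but the root response of −1.14 missed its threshold (adjusted p = 0.051 by limma), whereas the rise of 4.25 in shoots passed. The difference was −5.39 (SE 0.53, adjusted p = 0.000287 by limma) and held in all 12 fits without one library. Of the 8 RT-qPCR genes, 3 were called: this gene, a SWEET sugar transporter on chromosome 6A and a proline synthesis gene on chromosome 3B. By its own test, the study listed the Wrab18 gene as down in roots and up in shoots, and the SWEET gene the other way round. It reported that RT-qPCR on the same RNA samples changed in the same directions as its RNA-seq. The primers of these 3 genes, as the study designed them, were the following, written 5′ to 3′; they show which transcripts were also assayed by a second method.
Wrab18 forward: catgcgtccaatcttgctaa
Wrab18 reverse: cattacagaaccggacacga
SWEET 6A (BiSTS) forward: gcagtcatgcgttcatgc
SWEET 6A (BiSTS) reverse: aaaataactggctcgagcatc
P5CS 3B (TRAES) forward: tctctctgtgcgaggaatga
P5CS 3B (TRAES) reverse: agcatagatgtaccgatgcaa

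The other 5 RT-qPCR genes were not called for a difference between organs. Heat shock protein 90 (TraesCS2A02G033700) had a difference of −4.24 with an SE of 1.79 (adjusted p = 0.209 by limma), since its salt-treated root libraries read 10.7, 496 and 5.23. The dirigent protein TraesCS4A02G431400 rose in both organs, and its difference was −1.96 (SE 0.88). The differences of the flavin-containing monooxygenase TraesCS5A02G348400, the glutamate receptor TraesCS5B02G217500 and the lipoxygenase TraesCS2B02G333600 were 1.07 (SE 0.89), 1.14 (SE 0.5) and 0.1 (SE 0.73).

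The called proline genes changed in both organs, and the difference was one of size. All 9 genes of proline metabolism had a negative difference (median −1.39), and 3 were called. Delta-1-pyrroline-5-carboxylate synthase (P5CS), the rate-limiting enzyme of proline synthesis from glutamate, had a called gene on chromosome 3B (TraesCS3B02G395900, 623824481 to 623830911). It had 2755, 2157 and 1771 normalized counts in salt-treated roots against 1016, 803 and 474 in control roots, and 8677, 6920 and 7368 in salt-treated shoots against 475, 578 and 259 in control shoots. The rise was 1.59 in roots and 4.2 in shoots on the log2 scale, a difference of −2.61 (SE 0.45, adjusted p = 0.00589 by limma). TraesCS3A02G363700, the P5CS gene on chromosome 3A, rose by 2.18 in roots and by 4.07 in shoots. Both calls were fragile, being lost in 9 and 11 of the 12 fits without one library (adjusted p up to 0.0212 and 0.0257 by limma), with differences between −2.92 and −1.65. Proline dehydrogenase (TraesCS1B02G223300), which breaks proline down, fell more in roots, to 329, 552 and 395 normalized counts in salt-treated roots against 4425, 4480 and 4351 in control roots. In shoots it had 893, 1036 and 1032 under salt against 1716, 2423 and 2160 in controls. Its difference of −2.33 (SE 0.27) was called in every fit. The synthesis gene thus rose less and the breakdown gene fell more in roots than in shoots.

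**Figure D4:**
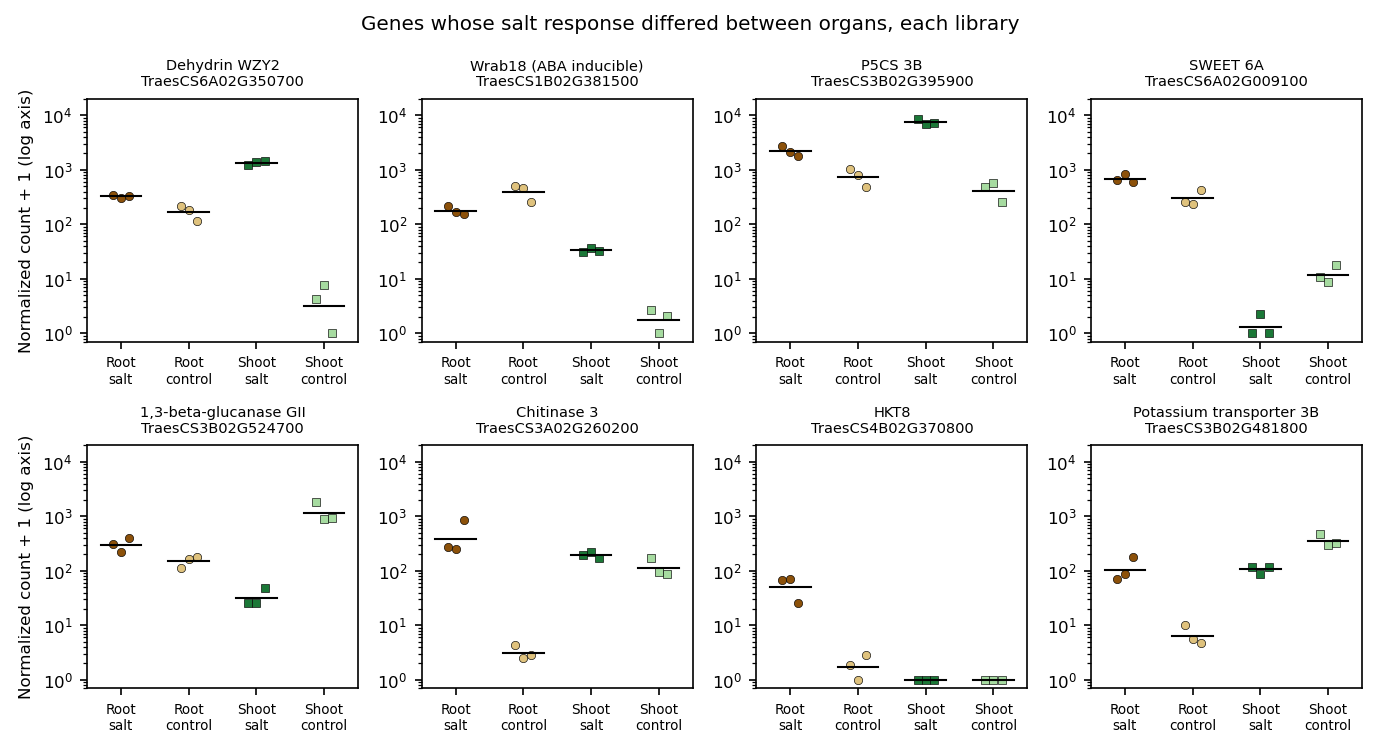
Normalized count + 1 (log axis) of 8 named genes in the 3 libraries of each group, in the order salt-treated roots, control roots, salt-treated shoots, control shoots; bars mark the mean of the log values. WZY2 is at 1205 to 1448 in salt-treated shoots and at most 6.66 in control shoots, while its root libraries lie between 114 and 349; the glucanase, the SWEET gene and HKT8 show the other patterns described in the text.

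Light-harvesting genes were called in one direction. Of 66 genes, 8 were called lower in roots and none higher, and 58 of the 66 differences were negative (median −1.28, with medians of −0.63 in roots and 0.44 in shoots). The root values rest on very low levels, and 16 of the 66 genes reached the minimum count in both organs. The chlorophyll a-b binding gene TraesCS6A02G094500 had 238, 241 and 245 normalized counts in salt-treated shoots against 13, 8.57 and 10.6 in control shoots, with all root libraries under 1. TraesCS7B02G103300 had 628, 627 and 731 in salt-treated shoots against 104, 41.9 and 40.3 in control shoots, with its root libraries also under 1. TraesCS5A02G350600, an abundant member, had 14700, 14788 and 12482 in salt-treated shoots against 5482, 3179 and 3201 in control shoots, and 3.07, 3.69 and 3.5 in salt-treated roots against 5.05, 18.7 and 19.4 in control roots. The calls were thus carried by shoot rises in 6 of the 8 genes. In the remaining pair, TraesCS2A02G342600 and TraesCS1B02G317500, the root fall passed the test at 23.2 normalized counts or less. Of the genes named here, the first 2 kept the call in every fit without one library, and the other 3 lost it in 6 to 10 of 12. Leaving out one library gave between 2 and 10 called genes of this list. In shoots the summed level of the list overlapped between the treatments. It was 373839 to 441687 normalized counts under salt against 289882 to 500969 in controls, where replicate 1 was the highest. Of 91 genes for photosystem and electron transport proteins none was called, with a median difference of 0.51, and 4 were lower in roots at an adjusted p under 0.05 (13 higher and 10 lower at an unadjusted p under 0.05, limma). The summed level of the 66 light-harvesting genes in roots was 356 to 423 normalized counts under salt against 484 to 1198 in controls. The part of this root level in the result was not tested.

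Of 44 genes for chitinases, glucanases and other defence proteins, 8 were called higher in roots and 1 lower, against 1.9% and 3.37% of described genes, and 35 did not pass the test. The median difference was 2.13, with 38 of 44 positive, and with one library left out the number higher was between 4 and 8. Root salt replicate 3 stood apart, with 57380 summed normalized counts for this list against 19839 and 18764 in the other salt-treated roots and 8121 to 9317 in control roots. Some members were called through roots and others through shoots. The chitinases TraesCS3A02G260200 and TraesCS3B02G293200 rose in roots and did not pass the test in shoots. Chitinase 3 (TraesCS3A02G260200) had 276, 247 and 871 normalized counts in salt-treated roots against 3.36, 1.56 and 1.86 in control roots. In shoots it had 198, 218 and 174 under salt against 172, 96.1 and 88 in controls, so that salt-treated roots reached the shoot level (difference 6.16, SE 0.62, adjusted p = 0.000335 by limma). TraesCS3B02G293200 had a difference of 6.69 (SE 1.02) whose call was lost without root control replicate 2 or 3, shoot salt replicate 2 or shoot control replicate 1 (adjusted p 0.0102 to 0.0128 by limma). The glucan endo-1,3-beta-glucosidases of the GII type, which cut callose and fungal glucans, fell in shoots instead. TraesCS3B02G524800 had 45.5, 48 and 105 normalized counts in salt-treated shoots against 2733, 1964 and 1789 in control shoots, and 2082, 1659 and 2635 in salt-treated roots against 760, 1267 and 1151 in control roots. Its difference was 6.11 (SE 0.45, adjusted p = 0.000103 by limma), and that of its neighbour TraesCS3B02G524700 was 6.17. The chitinase 10-like genes TraesCS3A02G312500 and TraesCS3B02G159700 were called through their fall in shoots by 1.6 and by 2.44. Class III chitinase (TraesCS1B02G158000) and a cysteine proteinase inhibitor (TraesCS2A02G126100) were called through the roots, where they rose by 1.83 and by 3.1. Of these 4 genes only TraesCS3B02G159700 kept its call in every fit without one library, and the others lost it in 9 to 11 of 12. The member lower in roots was a pathogenesis-related protein 1-10 (TraesCSU02G095300), which was listed at 0 in all 6 shoot libraries.

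Cell wall and lignin genes went in both directions. Of 319 peroxidases, 15 were called higher and 8 lower in roots (7.21%, median −0.5), so the calls and the median had unlike signs. At an adjusted p under 0.05 by limma the excess was reversed, with 26 higher and 35 lower. TraesCS5B02G405300 had 814, 840 and 1134 normalized counts in salt-treated roots against 328, 375 and 278 in control roots, and 6.16, 2.46 and 5.34 in salt-treated shoots against 286, 107 and 36.1 in control shoots (difference 5.78, SE 0.79). The number of peroxidases called lower ran from 1 to 38 when one library was left out. Of 121 laccases and dirigent proteins, which act in lignin and lignan formation, 3 laccases were called higher in roots and 4 genes lower. That was 5.79% of the list, near the 5.27% of all described genes. The laccases TraesCS3B02G489700, TraesCS3B02G489800 and TraesCS3A02G452400 had 20.1 to 77 normalized counts in salt-treated roots against at most 3.36 in control roots, and at most 0.951 in any shoot library. The dirigent protein TraesCS2B02G176400 fell in roots by 5.14 and was listed at 0 in shoots. Of 106 expansins and xyloglucan enzymes, 3 were called higher and 3 lower in roots (5.66%, also near that share). Of these, 3 were xyloglucan endotransglucosylases, which cut and rejoin wall polymers. TraesCS7B02G327400 rose by 3.11 in roots and by 1.08 in shoots (difference 2.03), and the other two rose in shoots. TraesCS2A02G433500 had 959, 1462 and 1369 normalized counts in salt-treated shoots against 128, 50.4 and 23.3 in control shoots, and 31.4, 58.3 and 54.1 in salt-treated roots against 352, 117 and 163 in control roots (difference −6.52, SE 0.76). TraesCS2B02G454500 had a difference of −4.58 (SE 0.5).

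Sugar transporters were the list with the largest share called among those of 10 or more genes. Of 43 genes, 11 were called lower and 1 higher in roots (27.9%), and all 12 were described as bidirectional sugar transporters of the SWEET family, which let sucrose or hexoses pass along their gradient. The 11 differed in how they came to be lower. In 8 genes the level fell in roots and the shoot difference did not pass the test. TraesCS5A02G039000 and TraesCS5B02G040800 had at most 3.49 normalized counts in salt-treated roots, against 96.6 to 196 in control roots, and were listed at 0 in all shoot libraries. TraesCS6A02G218800 had 227, 257 and 184 in salt-treated roots against 1536, 1157 and 652 in control roots, with 1332, 1667 and 2057 in salt-treated shoots against 1707, 1506 and 1034 in control shoots. TraesCS6B02G248300, TraesCS6A02G148600, TraesCS6B02G176800, TraesCS6A02G382400 and TraesCS5B02G040700 fell in roots by 1.79 to 4.41 on the log2 scale. The other 3 rose in shoots. TraesCS7B02G050500 had 2390, 1782 and 1191 normalized counts in salt-treated shoots against 130, 148 and 131 in control shoots, while its roots held 258, 281 and 173 under salt against 222, 241 and 270 in controls (difference −3.72, SE 0.35, adjusted p = 0.000224 by limma). TraesCS7A02G147300 rose by 2.34 and TraesCS1B02G147200 by 5.18 in shoots. The calls of TraesCS7B02G050500 and TraesCS7A02G147300 held in every fit without one library. Those of TraesCS5A02G039000 and TraesCS5B02G040800 held in every such fit that tested them. Without any one of the root control libraries, both fell under the minimum count and were not tested. The calls of the other 7 lower genes were lost in 3 to 11 of the fits without one library. The number of the list called lower ran from 2 to 10 over those fits, where a gene not tested counts as not called.

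The SWEET gene with the opposite sign was TraesCS6A02G009100, on chromosome 6A from 3771987 to 3774077. It had 648, 822 and 586 normalized counts in salt-treated roots against 255, 240 and 434 in control roots, and 0, 1.23 and 0 in salt-treated shoots against 9.76, 7.61 and 17 in control shoots. Neither organ's groups overlapped. The fall in shoots by 3.18 passed its test at these low levels, whereas the root difference of 1.18 did not (adjusted p = 0.0544 by limma). The difference between organs was 4.36 (SE 0.56, adjusted p = 0.00113 by limma) and was called in every alternative that could be fitted.

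Ion transporters called higher in roots included 2 potassium transporters and HKT8. TraesCS3B02G481800 had 70.3, 88.2 and 178 normalized counts in salt-treated roots against 9.23, 4.66 and 3.74 in control roots, and 119, 84.8 and 115 in salt-treated shoots against 480, 295 and 320 in control shoots. Its difference was 5.75 (SE 0.53, adjusted p = 0.000224 by limma), and that of TraesCS3A02G446600 on chromosome 3A was 5.3 (SE 0.69). In both genes the salt-treated groups of the 2 organs lay closer together than the control groups. HKT8 (TraesCS4B02G370800, chromosome 4B, 656815048 to 656817444) belongs to the HKT family, members of which retrieve sodium from the xylem in cereals. It had 66.6, 69.6 and 24.5 normalized counts in salt-treated roots against 0.84, 0 and 1.87 in control roots and was listed at 0 in all shoot libraries (difference 4.83, SE 0.71). Its call was lost with a pseudocount of 0.1. The ammonium transporter TraesCS2B02G383600 was called through a fall in shoots by 2.25, with values between 272 and 506 in all root libraries, and a second one, TraesCS2A02G365000, through a fall by 1.53 whose call was lost in 11 of 12 fits without one library. Lower in roots were a copper transporter (TraesCS5A02G377000), which rose in shoots by 2.84, and a chloride channel (TraesCS6A02G098600), which fell in roots by 1.75 and lost its call in 10 of 12 such fits. In all, 5 of 96 ion and nutrient transporters were higher and 2 lower (7.29%, against 5.27% of described genes). The median difference was −0.23, and at an adjusted p under 0.05 by limma 7 were higher and 10 lower. None of 8 aquaporins was called by limma, with 1 lower in roots at an adjusted and 2 at an unadjusted p under 0.05. A plasma membrane intrinsic protein, which belongs to the aquaporins but did not match the list's words (TraesCS2B02G425600), was called through a fall in roots by 1.79. Of 95 MATE transporters, 4 were called higher and 6 lower. TraesCS4B02G244400 rose in both organs, by 3.61 in roots and by 1.16 in shoots, and TraesCS4A02G066800 rose by 3.19 in roots, while its shoot difference of 0.74 passed neither threshold (adjusted p = 0.0354 by limma). TraesCS4A02G245300 had 159, 177 and 243 normalized counts in salt-treated shoots against 8.12, 0 and 0 in control shoots and at most 0.776 in roots, a call lost in 4 of 9 fits without one library, and TraesCS4A02G404500 fell in roots by 4.53.

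Regulators of transcription were mostly called through root falls. Of 153 transcription factors, 10 were called lower and 2 higher in roots, with between 2 and 12 lower when one library was left out. The 10 all fell in roots, by 1.08 to 3.14 on the log2 scale, without passing the test in shoots. They were bZIP, NAC, homeodomain-leucine zipper, MYB-related and CCAAT-binding factors, a regulator of phosphate signalling and heat shock factor C2a. The bZIP factor TraesCS7A02G170600 had 13.8, 21.3 and 27.9 normalized counts in salt-treated roots against 110, 105 and 116 in control roots, and 44.3, 49.2 and 46 in salt-treated shoots against 39, 29.5 and 13.8 in control shoots. Heat shock factor C2a (TraesCS7B02G272500) fell in roots by 1.83, with a difference of −2.56 (SE 0.33), the only one of the 10 called in every fit. Ethylene responsive transcription factor 5a (TraesCS5B02G214400) was higher in roots and was also called in every fit. It had 5698, 4564 and 4056 normalized counts in salt-treated roots against 1883, 2066 and 1726 in control roots, and 2352, 2135 and 1970 in salt-treated shoots against 4737, 3793 and 3588 in control shoots. Its root rise of 1.32 passed the thresholds, while the shoot difference of −0.9 fell short of the size required although its groups did not overlap. The other, heat stress factor Spl7 (TraesCS1A02G350400), had a difference of 3.31 (SE 0.55) that was lost in 7 of 12 fits without one library.

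Protein kinases and calcium-binding proteins went in both directions, with 9 of 217 higher and 11 lower. Of 89 genes of the description serine/threonine-protein kinase, 8 were called, all higher in roots, against 1.9% of described genes. The similar description non-specific serine/threonine protein kinase went the other way, with 1 of 42 genes higher and 4 lower. Of 4 genes described as kinases of the hyperosmotic stress response, 3 were called, each lower in roots through a rise in shoots. TraesCS2B02G521800 had 95.7, 72.2 and 50.6 normalized counts in salt-treated roots against 30.2, 43.6 and 33.5 in control roots, and 428, 325 and 478 in salt-treated shoots against 4.88, 7.61 and 5.3 in control shoots (difference −4.92, SE 0.41). TraesCS1B02G229400 and TraesCS1A02G215900 rose in shoots by 2.05 and by 1.5, with differences of −2.14 and −2.16 (SE 0.24 each). The control level of these last genes was higher in roots, at 920 or more normalized counts, than in shoots, at 76.4 or less. Annexins, which bind calcium and membranes, had 2 genes called lower, and TraesCS6B02G330100 rose in shoots by 1.29.

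Of 22 lipid transfer proteins, which carry lipids to the cuticle and act in defence, 3 were called higher in roots and none lower, with a median difference of 1.19. TraesCSU02G147200 had 205, 144 and 158 normalized counts in salt-treated roots against 9.3, 19.6 and 32.1 in control roots, and 2745, 3061 and 1999 in salt-treated shoots against 3485, 2768 and 2641 in control shoots. With one library left out the number higher ran from 1 to 3.

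Of the hormone lists, 3 of 76 auxin genes, 3 of 44 cytokinin, gibberellin and ethylene genes and 1 of 13 ABA genes were called (3.95%, 6.82% and 7.69%, against 5.27% of described genes). ABA 8′-hydroxylase (TraesCS5B02G236500), which inactivates ABA, had 4.59, 8.34 and 5.24 normalized counts in salt-treated roots against 24.3, 31.9 and 12.1 in control roots. In shoots it had 144, 268 and 226 under salt against 61.8, 72.3 and 73.3 in controls, without overlap. The difference was −3.26 (SE 0.52), lost in 8 of 12 fits without one library. An auxin efflux carrier (TraesCS7A02G258800) had 65, 47.1 and 26.2 normalized counts in salt-treated roots against 0, 1.56 and 0 in control roots and was listed at 0 in shoots. Cytokinin riboside 5′-monophosphate phosphoribohydrolase, which activates cytokinins, had 2 of 15 genes called lower in roots, of which TraesCS3A02G211100 fell by 3.72 in roots.

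Enzymes of several other lists had called genes. The terpene cyclases TraesCS4A02G496400 and TraesCS4A02G498200 had at most 3.45 normalized counts in salt-treated roots against 187 to 577 in control roots, and at most 0.991 in shoots. Fatty acyl-CoA reductases, which make wax and suberin alcohols, had 2 of 19 genes called lower in roots, TraesCS7A02G089400 with a difference of −5.87 and TraesCS4A02G388600 with −3.22, and their list of Casparian, suberin and wax genes had 4 of 127 called (3.15%). Glutathione synthetase had 1 of 4 genes called, the only one of the 19 glutathione enzymes (5.26%, against 5.27% of described genes). This gene, TraesCS7A02G442500, fell in roots by 3.82. It had 44.9, 45.9 and 53.6 normalized counts in salt-treated roots against 668, 777 and 639 in control roots. Its shoot values overlapped between the treatments. Trehalose 6-phosphate phosphatase (TraesCS2A02G161100) rose in roots by 3.03. MFT-3B-2 (TraesCS3B02G007400), of the family of MOTHER OF FT, which acts in seed dormancy, had the largest difference of any described gene that was higher in roots, 8.51 (SE 1.13). It had 3.69, 0 and 2.14 normalized counts in salt-treated shoots against 1745, 514 and 310 in control shoots, and at most 3.7 in roots.

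Several lists held no called gene. None of the 35 histone and replication genes, 53 ribosomal proteins, 32 chlorophyll synthesis genes, 29 receptor kinases, 21 cellulose synthases or 5 cyclins was called by limma, and at an adjusted p under 0.05 the only calls among them were 1 receptor kinase higher and 2 cellulose synthases lower in roots. At an unadjusted p under 0.05 these were, higher and lower in roots, 1 and 9 histone and replication genes, 2 and 1 ribosomal proteins, 4 and 3 chlorophyll synthesis genes, 7 and 1 receptor kinases, 3 and 2 cellulose synthases and 2 and 0 cyclins. The histone genes had a median difference of −0.88, with 31 of 35 negative.

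Called genes with differences of the same sign also lay next to each other on the chromosomes. With neighbours taken as called genes at most 500 kb apart, a distance chosen after the values were seen, 16 runs of 3 or more genes held 57 of the 1053 called genes with a chromosome position. Positions were given for 23625 of the genes tested, 4.54% of which were called. They came from the deposited tables of changed genes, so unchanged neighbours can lack a position. The share called within a run is therefore raised by this selection and cannot be read as completeness. Whether 16 runs exceed the number from random placement was not tested. Of the 16 runs, 9 were higher and 7 lower in roots. The longest, on chromosome 1B from 670025362 to 670167783, held 6 called genes of the 6 tested genes with a position there, with differences of 3.92 to 8.26, none of them described. In this run every gene fell in shoots (by 3.79 to 7.41 on the log2 scale) and none passed the test in roots. TraesCS1B02G454100, for example, had 0 in all salt-treated shoots against 259, 124 and 74.4 normalized counts in control shoots, at least 50.7-fold lower with the mean of the controls set against a floor of 3 counts, and 181, 199 and 153 in salt-treated roots against 163, 114 and 68.2 in control roots. The WZY2 run on chromosome 6A (582248516 to 582517359) held 4 of 4 tested genes with a position, all rising in shoots by 2.23 to 8.72, among them the MATE transporter TraesCS6A02G350400. The run with the Rab protein gene on chromosome 6B (658402976 to 658578499) held 3 of 4 tested genes with a position, and the 3 rose in shoots by 7.92 to 8.27. There TraesCS6B02G383600 had 4099, 3769 and 2876 normalized counts in salt-treated shoots against 19.5, 8.57 and 8.47 in control shoots, and 809, 554 and 391 in salt-treated roots against 262, 228 and 136 in control roots. The run with the Wrab18 gene on chromosome 1B (614183420 to 614293204) held 3 of 3 tested genes with a position, with shoot rises of 4.22 to 4.59. One of them, TraesCS1B02G381400, was among the genes with opposite responses. A run on chromosome 2B (787527262 to 787758101) instead held 5 of 5 such genes, without descriptions, that all rose in roots, by 2.19 to 4.53, and were at most 3.81 normalized counts in any shoot library. Other runs had more uncalled genes with a position, such as 5 of 9 called on chromosome 2B (245128909 to 246004262), 4 of 8 on 3A and 3 of 6 on 4A. Tested genes without a position are not in any of these counts. Members of a run can share sequence, and the read assignment was taken as deposited.

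**Figure D5:**
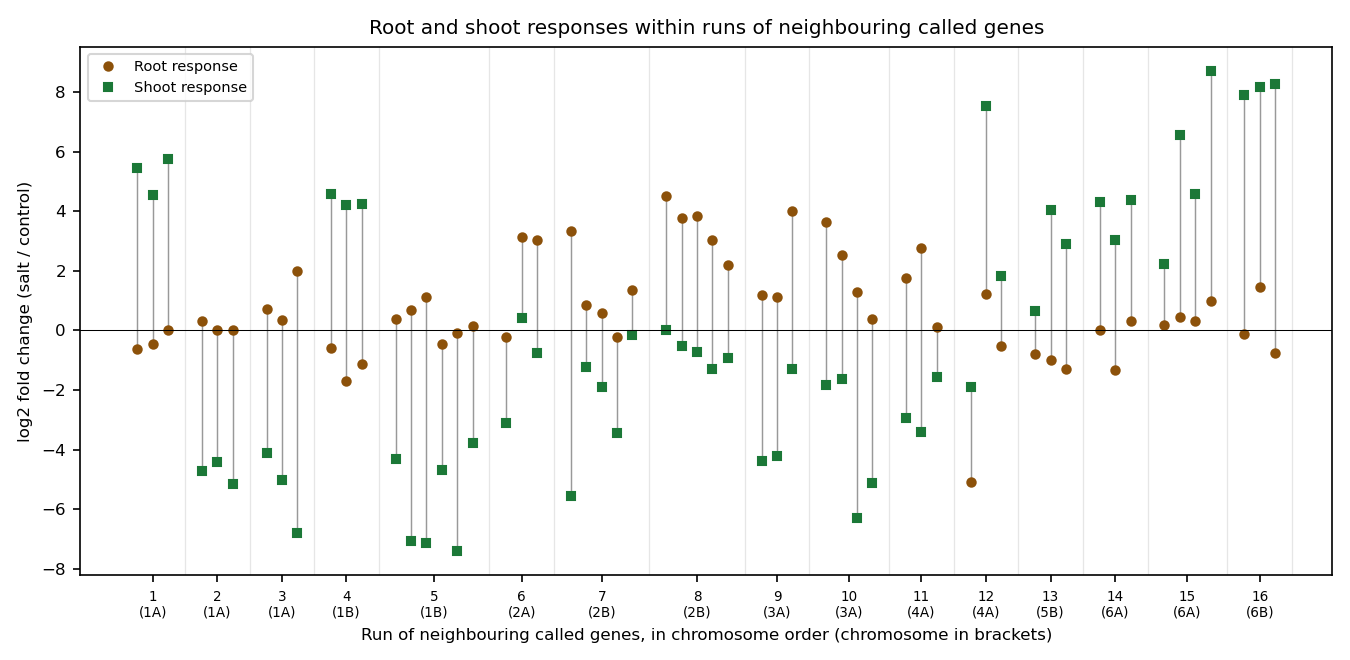
Root response (circles) and shoot response (squares), as log2 fold change of salt-treated over control, of the 57 called genes in 16 runs of neighbouring called genes, in chromosome order; lines join the responses of one gene. In run 5, on chromosome 1B, the 6 shoot responses lie between −7.41 and −3.79 and the root responses between −0.46 and 1.13.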

How the data were processed

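Normalized counts per gene of 12 libraries (4 groups, 3 each) were used. Per the labels and the methods, the authors trimmed reads with Trimmomatic 0.36, checked them with FastQC 11.8, quantified them on Ensembl Plants wheat transcripts with Salmon 0.12.0 and used DESeq2 for normalization. The deposited values are a signal that need not be whole and whose scaling differs between genes, so whole reads could not be recovered, no count model was used and no counting error can be given. Positions and descriptions came from the authors' 4 comparison tables, on the IWGSC assembly. The fold changes and p-values that those tables hold were not used. No gene ID matched the reference gene table, so no promoter or protein sequence was read.

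Genes with 10 or more normalized counts in 3 or more libraries were tested with limma 3.58.1 (R 4.3.3) on log2(count + 1), with a variance trend, one coefficient per group and Benjamini-Hochberg adjustment. The pseudocount understates changes of low genes. A call needed an adjusted p under 0.01 and a difference of 1 or more in size. The script was tested on simulated data. P-values measure the spread between these pooled-plant samples. A permutation test of 3 libraries against 3 cannot go below 0.1. Lists were made by words in the descriptions, and the words were corrected after the matching descriptions had been seen. The members and lists were chosen with earlier results of these data known. Named genes were the 10 largest differences in each direction with the minimum count in both organs and groups apart in at least one organ, up to 10 opposite genes per direction (described first), up to 4 called genes per list, the 8 RT-qPCR genes and the 5 largest differences in each direction. A further 88 genes, namely the called members of 6 lists, the runs of neighbours and some single genes of the text, were added after their values were seen. Alternatives were the thresholds, pseudocount, filter, scaling, variance model, replicate block and each library left out.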

Additional observations from a re-analysis of the deposited data

Results flagged for a closer look

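The test of the difference between organs itself flagged 1097 genes, of which 48 changed in opposite directions. The lowest difference was that of TraesCS3B02G213600 (−10.16, SE 1.08), with 1288, 1319 and 927 normalized counts in salt-treated shoots against 1.63, 5.7 and 0 in control shoots, and root libraries between 0 and 8.39. The highest was that of TraesCS2A02G058100 (11.01, SE 1.84), with 11169, 15960 and 157 in salt-treated roots against 5.89, 10.9 and 19.5 in control roots. Root salt replicate 3 was far below the others, and the call was lost in 10 of 12 fits without one library (adjusted p up to 0.0164 by limma), with differences of 9.81 to 13.14. Among the genes of the RT-qPCR list, P5CS on chromosome 3B (TraesCS3B02G395900, −2.61), the SWEET gene TraesCS6A02G009100 (4.36) and the Wrab18 gene TraesCS1B02G381500 (−5.39) responded differently in the 2 organs.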

How the results depend on the processing

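Of the 5391 alternative values of the 215 called genes followed, 4394 kept direction and call, 997 kept the direction only and none turned round, and 94 of these genes were called in every fit. Against 1097 called genes (476 higher and 621 lower in roots, 48 opposite), an adjusted p threshold of 0.05 gave 3078 (1387, 1691, 184), a pseudocount of 0.1 gave 726 (404 lower, 31 opposite), a pseudocount of 10 gave 1891 (824, 1067), array quality weights gave 2355 (950, 1405, 107), and no filter on low counts gave 29 opposite. With one library left out, the counts ran from 453 to 1727 called, 233 to 761 higher, 220 to 966 lower and 18 to 62 opposite. The lowest all came without root control replicate 2, the highest without root salt replicate 3. Equal library totals moved the median response of all genes to 0.12 in roots and 0.17 in shoots and gave 1159 called genes, with no list described by its direction turning round except the Casparian, suberin and wax list (median 0.1 against −0.02). Deviations of root and shoot libraries with one number correlated at 0.068 to 0.315, one under 0.1. Those of salt-treated and control libraries of one organ with one number correlated at −0.013 to 0.096. The main fit used no pairing because the sources do not link the numbers across organs. That the numbers pair the samples was not excluded. A block for the number gave 1003 called genes, 846 of them among the 1097, and 53 opposite. A block for treatment and number, the fit for organs of the same plants, gave 1000, 742 of them among the 1097, and allowed no opposite count, since organ responses could not be fitted. The cause was not tested for any of these shifts.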

Other observations

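Some descriptions outside the 41 lists had several called genes, and these were chosen after their counts were seen. Of all described genes, 1.9% were called higher and 3.37% lower in roots. Of 43 sulfotransferases, which add sulfate to hormones and other small molecules, 5 were called, all lower in roots, with differences of −5.84 (TraesCSU02G188400) to −3.25 (TraesCS1B02G443400). Of 31 patatins, 6 were called lower and 1 higher. Besides the gene with opposite responses, TraesCS1A02G407900 had a difference of −5.3 and TraesCS5B02G529000, the neighbour of the opposite gene by its ID, of −4.47. Of 67 WAT1-related proteins, 3 were called higher and 5 lower, among them TraesCS6A02G329600 (−6.67), which fell in roots by 7.47.

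Called genes were unequally spread over the subgenomes. Of the A genes tested 2.27% were called and of the B genes 2.37%, with 28 and 19 of the 48 opposite genes. Of the 5573 D genes tested 0.61% were called and none was opposite. The D genes tested had a median level of 22.3 normalized counts, against 124 for A and 115 for B, and the part of this lower level in their share of calls was not tested.

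An iron-sulfur cluster assembly protein gene (TraesCS1B02G436500) rose in both organs, by 3.32 in roots and by 9.23 in shoots, a difference of −5.92 whose call was lost in 7 of 12 fits without one library.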
